A study of Mus musculus with 15 samples.

Results

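The antigen receptor of the OT-I CD8+ T cells was followed here through the 9 genes that encode its invariant parts, chosen by symbol and function and not by their values: Cd3d, Cd3e, Cd3g and Cd247 (the CD3 delta, epsilon, gamma and zeta chains), Cd8a and Cd8b1 (the CD8 co-receptor), and Trac, Trbc1 and Trbc2 (the constant regions of the receptor alpha and beta chains). They are 9 of the 55536 annotated genes in the count table, and all 9 passed the filter on low counts. RNA was sequenced from OT-I cells, which carry a transgenic receptor for the ovalbumin peptide SIINFEKL, in 3 groups of 5 libraries. Naive cells came from OT-I mice that received neither transfer nor treatment. In the Ag group, OT-I cells that had been transferred into wild-type C57BL/6J mice met the peptide together with control rat IgG, and in the Ag+Costim group they met the peptide together with agonist antibodies to the costimulatory receptors CD134 (OX40) and CD137 (4-1BB). The labels place both treated groups at 4 days, whereas the study's methods give a slightly shorter time from stimulation to sort. The donor strain is labelled as OT-1 transgenic on C57BL/6J. The study's methods describe the OT-I lines as lacking Rag1 or Rag2, without a genotype or an age for each library. Each group held 3 female and 2 male libraries.

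An alpha and a beta chain recognise peptide bound to a major histocompatibility complex molecule but have almost no cytoplasmic part of their own. Signalling is passed on by the CD3 chains, whose cytoplasmic tails carry the tyrosine motifs that Lck phosphorylates and Zap70 then binds, while CD8 binds the class I molecule and brings Lck to the complex. After a T cell meets antigen, receptor complexes are taken in from the surface and the zeta chain is turned over.

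Transferred cells were sorted from spleen and lymph nodes on CD8, CD45.1, V alpha 2 and V beta 5 protein. A cell without surface CD8 or receptor was therefore outside the Ag and Ag+Costim groups, whose levels describe transcripts in cells that kept both. The study calls the Naive cells purified CD8+ T cells as well, without describing their sort separately. The OT-I receptor comes from rearranged transgenes, and reads from transgenic and endogenous constant regions were counted at the same genes. The Ag libraries were all run on lane 2, the Naive libraries all on lane 3 and the Ag+Costim libraries on both, so Ag vs Naive can be separated from lane only through the Ag+Costim libraries. Library totals ran from 4865952 counts in Ag 3 to 25280667 in Naive 3. Ag 3 also had the lowest share of reads counted at genes (16.9%) and the highest summed erythroid markers (1311 CPM, that is, counts scaled to a common library size, with 15.02 CPM in the lowest Ag library), and Naive 5 had the highest summed myeloid markers (1166 CPM). Because both stood apart, results are given with and without them. Ag 1 and Ag 4 also stood apart from Ag 2, 3 and 5, with Klrk1 at 122 and 162 CPM against 378 to 496 CPM. Eomes was at 20.1 and 23.8 CPM in Ag 1 and Ag 4, against 79.7 to 93.8 CPM in Ag 2, 3 and 5. No fit left out Ag 1 and Ag 4 together.

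The lineage given by the labels was checked against marker genes. All 9 genes lay between the 94.9th and the 99.97th percentile of tested genes in CPM per kilobase, whereas Cd4, the co-receptor of helper T cells, ranged from 0 to 4.79 CPM. Summed B cell markers (11 genes, led by Ighm) were 597 to 980 CPM in Naive, 620 to 1594 CPM in Ag and 561 to 849 CPM in Ag+Costim, summed gamma delta T cell markers (6 genes) were 169 to 398, 106 to 143 and 98.3 to 133 CPM, and summed NK markers (6 genes, of which Klrk1, Gzma and Eomes are also expressed by effector CD8+ T cells) were 97.7 to 567, 160 to 922 and 593 to 901 CPM. Naive 5 had the highest NK sum of the Naive libraries, with Klrk1 at 318 and Eomes at 86.9 CPM. The next highest Naive library, Naive 2, had 227 and 34.7 CPM. Gzma was at 147 CPM in Naive 5 and 142 CPM in Naive 2. Among Naive libraries Ncr1, Klrb1c and Klra8 were highest in Naive 2. The B cell gene Ms4a1 was near 0 in Naive and highest in Ag 3 (77.1 CPM). Summed myeloid markers (10 genes) lay between 90.9 and 380 CPM in every library but Naive 5, summed erythroid markers (6 genes) were 52.3 to 151 CPM in Naive and 4.39 to 37.0 CPM in Ag+Costim, and summed CD4+ T cell markers (5 genes) lay between 4.75 and 40.7 CPM in all libraries. No list had a gene at 0 in every library. Their part in the results below was not tested. In bulk RNA a lower CPM can mean fewer cells expressing a gene or less of its RNA per cell. As CPM is relative to the library, it can also mean more RNA from other genes. These cannot be told apart here.

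The CD3 genes Cd3g (ENSMUSG00000002033.14, chr9:44969572-44980431, minus strand), Cd3d (ENSMUSG00000032094.8, chr9:44981786-44987339, plus strand) and Cd3e (ENSMUSG00000032093.7, chr9:44998740-45009627, minus strand) lie side by side, and Cd247 (ENSMUSG00000005763.15, chr1:165788681-165877277, plus strand) lies apart from them, all in GRCm38. Cd8b1 (ENSMUSG00000053044.8, chr6:71322788-71337494) and Cd8a (ENSMUSG00000053977.13, chr6:71373427-71379173) are neighbours on the plus strand, as are Trbc1 (ENSMUSG00000076490.6, chr6:41538218-41539881) and Trbc2 (ENSMUSG00000076498.2, chr6:41546730-41548352), and Trac (ENSMUSG00000076928.5) is at chr14:54220521-54224206, plus strand.

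The most alike of the 9 genes in sequence are the pair of beta constant genes. The main transcripts of Trbc1 and Trbc2 each have 4 exons, and over the first 3 (500 aligned bases) they differ at 19 positions and are 96.2% identical. Exon 1 (375 bases) holds 1 difference, exon 2 (18 bases) holds 3 and exon 3 (107 bases) holds 15, so the reads that tell the genes apart come mostly from exon 3 and the last exon. A window across exon 2 is printed because a single read can cover its 3 differences (GENCODE M21 annotation, GRCm38 build, plus strand, chr6:41538587-41538592, chr6:41539114-41539131 and chr6:41539229-41539234 for Trbc1, chr6:41547099-41547104, chr6:41547610-41547627 and chr6:41547772-41547777 for Trbc2). Capitals mark the bases that differ, G383A, T386C and C389T, counted from 1 at the first base of exon 1 with the Trbc1 base first.
Trbc1: gagcagactgtggGatTacCtcagcatcct
Trbc2: gagcagactgtggAatCacTtcagcatcct
Of all windows of 50 bases in their transcripts, 40.5% of those of Trbc1 and 44.0% of those of Trbc2 also occur in the other gene. For windows of 100 bases, the other read length that the sources give, the shares are 28.2% and 30.9%, so the split of counts between them is uncertain and their sum is firmer. Trac and Cd3g shared no window of either length with another gene.

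Cd8a and Cd3e each have transcripts that differ at a junction, and these are printed because the shares described below are those of transcripts that part at these points. Cd8a-201 (5 exons, 741 coding bases) and Cd8a-202 (4 exons, 666 coding bases) differ by an exon of 31 bases, and also in where they start and end (3128 and 2975 bases in all), so their estimated shares need not reflect that exon alone. Leaving the exon out changes the reading frame and shortens the cytoplasmic tail, as in the form known as CD8 alpha prime. Cd8a-203 keeps intron 1 and Cd3e-202 keeps an intron after exon 4. Each line gives 15 bases on either side of the point where the transcripts part, with the bases after it in capitals (GENCODE M21, GRCm38). The Cd8a lines are from the plus strand, at chr6:71374855-71374869 with chr6:71375888-71375902 or chr6:71376860-71376874 for the alternative exon, and at chr6:71373983-71373997 with chr6:71374503-71374517, or chr6:71373983-71374012 unspliced, for intron 1. The Cd3e lines are from the minus strand, at chr9:45005512-45005526 with chr9:45002339-45002353, or chr9:45005497-45005526 unspliced.
Cd8a-201, exon 3 to 4: tcatctgctaccacaGGAGCCGAAAGCGTG
Cd8a-202, exon 3 to the last: tcatctgctaccacaGCCGCTAGTCAGACA
Cd8a-201, exon 1 to 2: cagtccttcagaaagTGAACTCTACTACTA
Cd8a-203, intron 1 kept: cagtccttcagaaagGTTTGGAAGTGGAGG
Cd3e-201, exon 4 to 5: atgccgagaacattgAATACAAAGTCTCCA
Cd3e-202, intron kept: atgccgagaacattgGTAAGAAGATTTGCT

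Levels of different genes were compared per length, in CPM per kilobase of transcript. In Naive cells Trbc2 was the highest at 4130 ± 478 CPM per kilobase (SD, n = 5), followed by Trbc1 at 1965 ± 378, Cd8b1 at 1408 ± 279, Trac at 1369 ± 180, Cd3g at 882 ± 188, Cd3e at 636 ± 118, Cd3d at 469 ± 54.5, Cd8a at 289 ± 64.1 and Cd247 at 232 ± 39.4 CPM per kilobase. The beta constant genes therefore led, the CD3 gamma, epsilon and delta chains lay in the middle in that order, and the zeta chain was the lowest. Of the 8 neighbouring pairs in this order, 5 overlapped within 1 SD of their means, and the pairs that did not were Trbc2 with Trbc1, Trac with Cd3g and Cd3d with Cd8a. The order was the same in the Ag and the Ag+Costim groups but for Trac, which stood above Cd8b1 in both (1526 ± 348 against 1034 ± 164 CPM per kilobase in Ag and 1183 ± 78.6 against 855 ± 71.7 in Ag+Costim). In Ag cells 6 of the 8 neighbouring pairs overlapped, and in Ag+Costim cells 1 did, Trbc1 at 1335 ± 144 with Trac.

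**Figure D1:**
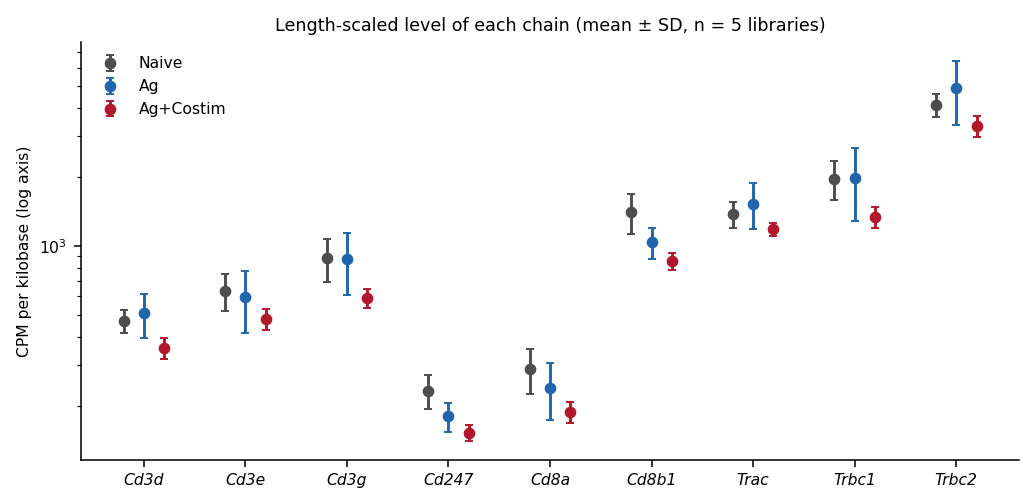
Mean level of the 9 genes in CPM per kilobase of transcript (log axis) in the Naive, Ag and Ag+Costim groups, with bars of 1 SD over 5 libraries. Trbc2 is the highest in every group (4130, 4866 and 3333 CPM per kilobase) and Cd247 the lowest (232, 180 and 152).

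Together the 9 genes took 0.816% to 1.34% of the counts of a Naive library, 0.656% to 1.51% of those of an Ag library and 0.678% to 0.874% of those of an Ag+Costim library. The Ag+Costim range lay within the Ag range and overlapped the bottom of the Naive range. The members also varied least among Ag+Costim libraries, with a median coefficient of variation of 10.2% (5.25% for Trac to 10.7% for Trbc1). It was 19.0% in Naive and 25.7% in Ag (up to 35.2%, again for Trbc1). The share of reads counted at genes varied least in Ag+Costim too (52.3% ± 0.309, against 42.5% ± 3.94 in Naive and 40.9% ± 14.9 in Ag). Whether the tighter spread is particular to the 9 genes was not tested. Much of the Ag spread was shared by the genes: Ag 3 was the lowest Ag library for all 9, and Ag 4 was the highest for 6 of them (Cd3d, Cd3e, Cd3g, Trac, Trbc1 and Trbc2). In the Naive group, Naive 5 was the lowest library for 8 genes and Naive 3 the highest for 8.

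**Figure D2:**
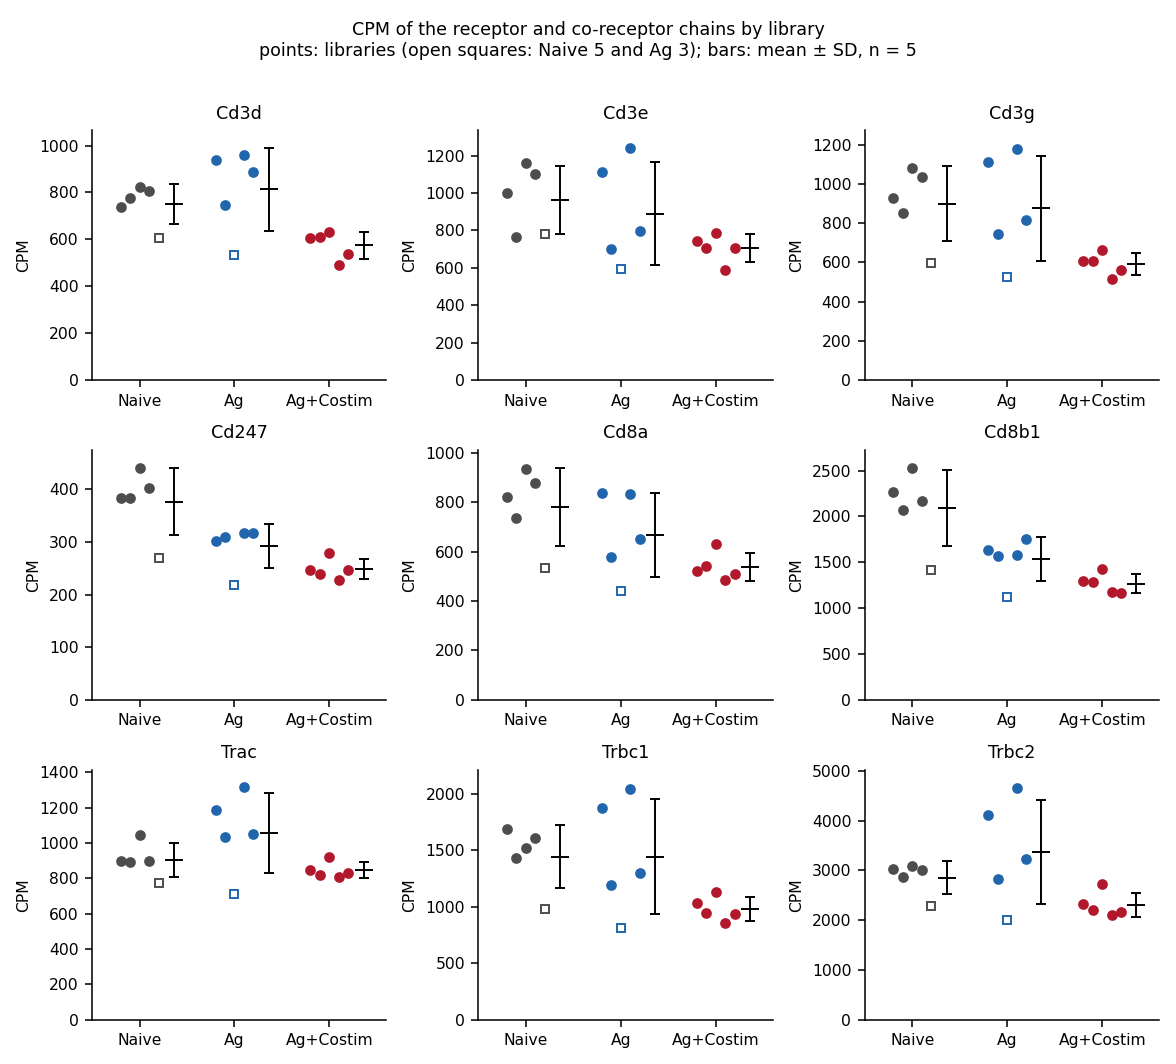
CPM of the 9 genes in each of the 15 libraries (points), by group, with the group mean and 1 SD; open squares are Naive 5 and Ag 3. The open squares sit at the bottom of their groups for nearly every gene, and the Ag+Costim points are the most tightly packed.

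The first comparison, Ag vs Naive, asks what antigen alone had done to these transcripts by the labelled day 4. None of the 9 genes passed edgeR's quasi-likelihood test at a false discovery rate (FDR) of 0.05, against 6.71% of the 17366 genes tested, and 2 of the 9 had an unadjusted p under 0.05 in that test, against 28.7% of all genes. DESeq2 called 1, Cd8b1, where it called 15.8% of all genes. Values below Naive were found for 5 genes, and the median log2 fold change of the 9 was -0.04, against 0.08 for all genes tested. No gene had groups that did not overlap (1.76% of all genes did so with Ag higher and 2.09% with Ag lower).

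The largest differences in Ag vs Naive were those of the co-receptor beta chain and of zeta. For Cd8b1 the log2 fold change was -0.45 (SE 0.16, FDR 0.0882 in edgeR), and for Cd247, whose chain carries most of the tyrosine motifs of the complex, it was -0.36 (SE 0.14, FDR 0.112). Neither passed the test. The receptor alpha constant region leaned the other way, with Trac at 0.23 (SE 0.14, FDR 0.279), as did Trbc2 at 0.24 (FDR 0.393), while Trbc1 stood at 0.00 (FDR 0.998) and Cd3g at -0.04. Without Ag 3 and Naive 5, 3 of the 9 genes passed in edgeR, against 22.9% of all genes in that fit: Cd247 and Cd8b1 were lower in Ag and Trac was higher. Ag 3 was the lowest Ag library for all 9 genes and Naive 5 the lowest Naive library for 8. Leaving them out raises both group means.

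The second comparison, Ag+Costim vs Ag, differs in the agonist antibodies to CD134 and CD137, but also partly in lane. Ag+Costim 4 and 5 were run on lane 3, and all Ag libraries on lane 2. Ag+Costim 4 was the lowest library of its group for 8 of the 9 genes, and Ag+Costim 5 for Cd8b1. With lane as a term edgeR called 0 of 17366 genes, and within lane 2 it called 0 of 16920. All 9 genes had lower values in Ag+Costim, with a median log2 fold change of -0.33 against -0.10 for all genes, but none passed edgeR's test at FDR 0.05, as only 0.0346% of all genes did (6 genes). An unadjusted p under 0.05 in edgeR was found for 5 of the 9, against 26.8% of all genes, and DESeq2 called 1, Cd3d, where it called 14.6% of all genes. The groups overlapped for every one of the 9 (Ag+Costim did not overlap Ag and was lower for 2.1% of all genes, and higher for 4.23%).

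Cd3d, the CD3 delta chain that pairs with epsilon, showed the lowest FDR of the 9 in this comparison. Its CPM was 936, 749, 534, 958 and 888 in Ag 1 to 5, and 606, 608, 630, 489 and 539 in Ag+Costim 1 to 5. Every Ag library but Ag 3 was above every Ag+Costim library. The log2 fold change was -0.50 (SE 0.15, edgeR FDR 0.0844). Cd3g gave -0.57 (SE 0.21, FDR 0.110), Trbc1 -0.56 (SE 0.22, FDR 0.130) and Trbc2 -0.55 (SE 0.19, FDR 0.102), and the differences of Cd247 (-0.24), Cd8b1 (-0.27) and Cd8a (-0.31) were smaller. Without Ag 3 and Naive 5, 5 of the 9 passed in edgeR, against 5.73% of all genes in that fit, all lower in Ag+Costim: Cd3d, Cd3g, Trac, Trbc1 and Trbc2. Ag 3 was the lowest Ag library for all 9, so leaving it out favours lower values in Ag+Costim. Ag 1 and Ag 4, the highest libraries for Trbc1 and Trbc2, were kept.

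The third comparison, Ag+Costim vs Naive, sets cells that received antigen and both agonists against cells that met neither. It shares the Ag+Costim libraries with the second comparison and the Naive libraries with the first. Here 4 of the 9 genes fell (edgeR, FDR 0.05): Cd8b1, Cd247, Cd3g and Cd8a, that is, both co-receptor chains and 2 CD3 chains. In this comparison 23.6% of all genes fell and 44.7% were called in either direction, and 7 of the 9 had an unadjusted p under 0.05 against 55.7% of all genes. All 9 fold changes were below 0, with a median of -0.54 on the log2 scale against -0.08 for all genes.

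Cd8b1, the CD8 beta chain, which forms the CD8 alpha-beta heterodimer of conventional cytotoxic T cells, gave the largest fall. Its CPM was 2266, 2074, 2522, 2167 and 1410 in Naive 1 to 5, 1636, 1570, 1119, 1584 and 1755 in Ag 1 to 5, and 1297, 1280, 1424, 1175 and 1162 in Ag+Costim 1 to 5. All Naive libraries but Naive 5 were above all Ag and Ag+Costim libraries, and Naive 5 lay among them. The Ag+Costim level was 0.607 of the Naive level (log2 fold change -0.72, SE 0.16, edgeR FDR 0.00610).

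Cd247 followed. Its CPM was 384, 384, 441, 404 and 270 in Naive 1 to 5, 303, 309, 218, 317 and 317 in Ag 1 to 5, and 247, 240, 280, 229 and 247 in Ag+Costim 1 to 5. Again only Naive 5 lay inside the range of the treated libraries. The Ag+Costim level was 0.659 of the Naive level (log2 fold change -0.60, SE 0.14, edgeR FDR 0.00785). A single protein-coding transcript of 1632 bases held 96.4% to 99.7% of the gene's counts. Cd247 overlaps the gene Pou2f1 on the other strand and the kit does not mark strand, but that overlap lies in long transcripts with few counts.

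The other genes that fell were Cd3g, the CD3 gamma chain, and Cd8a, the CD8 alpha chain that both forms of the co-receptor need. Cd3g measured 928, 855, 1084, 1039 and 595 CPM in Naive 1 to 5, 1110, 747, 528, 1180 and 819 CPM in Ag 1 to 5, and 605, 607, 666, 514 and 563 CPM in Ag+Costim 1 to 5. Cd8a measured 823, 736, 935, 880 and 534 CPM in Naive 1 to 5, 840, 577, 439, 833 and 653 CPM in Ag 1 to 5, and 524, 543, 631, 487 and 508 CPM in Ag+Costim 1 to 5. For both, 4 Naive libraries lay above all Ag+Costim libraries and Naive 5 lay within their range, while the Ag libraries spread over nearly the whole scale. The log2 fold changes in Ag+Costim vs Naive were -0.61 for Cd3g (SE 0.21, edgeR FDR 0.0311) and -0.54 for Cd8a (SE 0.19, FDR 0.0320).

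Cd3d and Trbc1 lay just outside the threshold, and Trac stood apart from the rest. On the log2 scale Trbc1 differed by -0.56 (SE 0.22, FDR 0.0520 in edgeR), Cd3d by -0.38 (SE 0.15, FDR 0.0533), Cd3e, whose epsilon chain is part of every CD3 pair, by -0.44 (SE 0.20, FDR 0.0746) and Trbc2 by -0.31 (FDR 0.181). Trac differed by -0.09 (SE 0.14, FDR 0.600), with 899, 893, 1046, 898 and 773 CPM in Naive 1 to 5, 1187, 1031, 709, 1316 and 1051 CPM in Ag 1 to 5, and 847, 821, 921, 809 and 832 CPM in Ag+Costim 1 to 5. The Trac levels of the Naive and Ag+Costim libraries were interleaved, and 4 of the 5 Ag libraries lay above all Ag+Costim libraries.

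The per-library values of the chains that did not pass show where their spread lay. Cd3e measured 1002, 764, 1161, 1100 and 780 CPM in Naive 1 to 5, 1112, 699, 596, 1239 and 799 CPM in Ag 1 to 5, and 743, 706, 788, 590 and 707 CPM in Ag+Costim 1 to 5. Ag 1 and Ag 4 were as high as the highest Naive libraries, and Naive 2 and Naive 5 lay within the Ag+Costim range. Cd3d in Naive 1 to 5 measured 739, 776, 824, 805 and 607 CPM, so that all but Naive 5 lay above the Ag+Costim libraries. Trbc1 measured 1687, 1429, 1521, 1609 and 981 CPM in Naive 1 to 5, 1879, 1198, 811, 2048 and 1298 CPM in Ag 1 to 5, and 1036, 944, 1132, 858 and 937 CPM in Ag+Costim 1 to 5. Trbc2 measured 3035, 2875, 3081, 3017 and 2282 CPM in Naive 1 to 5, 4123, 2830, 2000, 4651 and 3232 CPM in Ag 1 to 5, and 2328, 2206, 2723, 2103 and 2173 CPM in Ag+Costim 1 to 5. For both beta constant genes Ag 1 and Ag 4 lay above every other library, and the lowest Ag library, Ag 3, lay below every Ag+Costim library.

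No gene of the 9 had groups that did not overlap in Ag+Costim vs Naive, whereas 22.3% of all genes did with Ag+Costim lower and 22.7% with Ag+Costim higher. This rested on Naive 5. Without it, Ag+Costim lay below Naive with no overlap for 7 of the 9, all but Cd3e and Trac, against 32.7% of all genes, and 6 of the 9 were called, against 51% of all genes. Naive 5 was the lowest Naive library for 8 of the 9, so leaving it out favours lower values in Ag+Costim. The number called moved between settings, as did the share of all genes called (in parentheses). It was 1 with lane as a term in the fit (5.43% of all genes), 3 within lane 3 (34.7%), 7 with library totals as the only scaling (46.7%), 8 with the libraries of this comparison alone (64.8%) and 0 without the filter on low counts (8.49%). It was also 1 without Ag+Costim 4 (29.6%), and 2 without any 1 of Naive 1, 3 and 4 or Ag+Costim 1, 2 and 5 (21.6% to 31.3%). Of 20 alternatives tried for this comparison, Cd8b1 was called in 19 and Cd247 in 17, while Cd3g and Cd8a were called in 10 each.

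**Figure D3:**
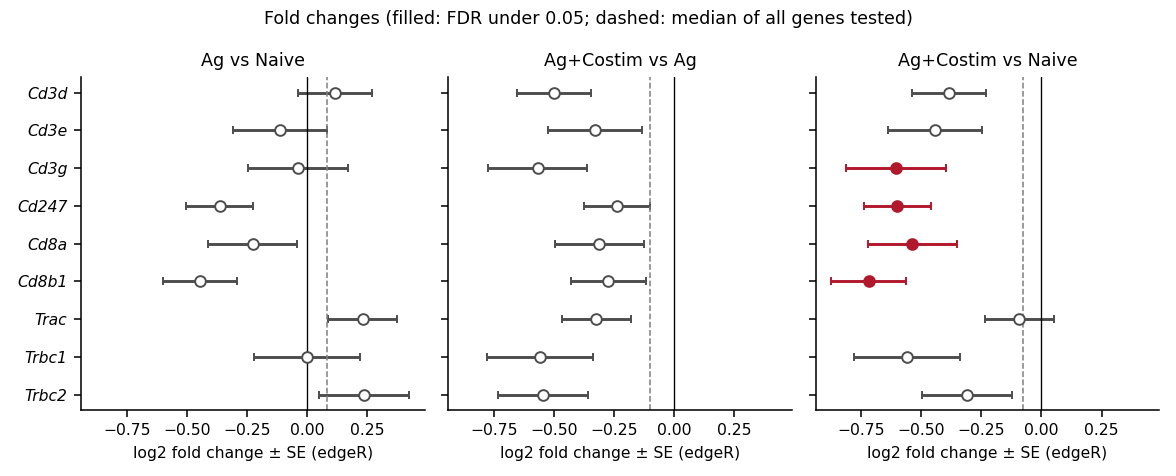
Log2 fold change of the 9 genes in the 3 comparisons (points, with bars of 1 SE), filled where edgeR's FDR was under 0.05; the dashed line is the median of all genes tested. Filled points appear only in Ag+Costim vs Naive, for Cd8b1, Cd247, Cd3g and Cd8a.

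Ratios within a library ask whether the chains of one complex kept their proportions, and 5 ratios were tested in 3 comparisons by an exact permutation test (two-sided, over all 252 splits of 5 against 5, which cannot give a p under 0.00794). After Benjamini-Hochberg adjustment over the 15 tests none passed 0.05, although 6 had an unadjusted p under 0.05. Groups that did not overlap at all gave that smallest p, and its adjusted value here was 0.0595. Not passing therefore does not show that the proportions were kept. Cd8b1 to Cd8a was 2.67 ± 0.136 in Naive, 2.36 ± 0.405 in Ag and 2.36 ± 0.0903 with costimulation (SD, n = 5). Ag 1 and Ag 4 had the lowest ratios of beta to alpha chain transcripts, 1.95 and 1.901, and the other Ag libraries had 2.55 to 2.72. Gzma, the gene of a cytotoxic granule protease, was also lowest in these Ag libraries, at 10.5 CPM in Ag 1 and 11.4 CPM in Ag 4 against 269, 268 and 368 CPM in Ag 2, 3 and 5, and its part in the ratio was not tested. The exact permutation p of the ratio was 0.0159 in Ag+Costim vs Naive (adjusted 0.0595) and 0.190 in Ag vs Naive (adjusted 0.317). The same libraries, Ag 1 and Ag 4, had the lowest Cd247 to Cd3e ratios, 0.272 and 0.256, against group means of 0.396 in Naive, 0.347 in Ag and 0.353 with costimulation, and no comparison of this ratio passed an exact permutation test (p = 0.262 in Ag vs Naive, p = 0.119 in Ag+Costim vs Naive and p = 0.738 in Ag+Costim vs Ag).

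The balance of alpha to beta constant-region transcripts differed most between Naive and Ag+Costim. Trac to the sum of Trbc1 and Trbc2 was 0.211 ± 0.0203 in Naive, 0.227 in Ag and 0.258 ± 0.0135 with costimulation, and the Naive and Ag+Costim libraries did not overlap (log2 difference 0.29, exact permutation p = 0.00794, adjusted 0.0595). Trbc1 made up 33.4% ± 2.16 of the summed beta constant counts in Naive, 29.8% ± 1.13 in Ag and 29.8% ± 0.709 with costimulation, with an exact permutation p of 0.0238 for each treated group against Naive (adjusted 0.0595). The uncertainty over reads shared by Trbc1 and Trbc2 applies to this share.

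Alpha chain variable segments were also set against Trac. Summed over all Trav genes, they came to 0.274 ± 0.0553 of Trac in Naive, 0.226 ± 0.0657 in Ag and 0.135 ± 0.0132 with costimulation. All 5 Ag+Costim libraries (0.117 to 0.154) lay below all Naive libraries (0.191 to 0.324). Ag 5 (0.152) lay within the Ag+Costim range, and Ag 2 (0.163) just above it. The log2 difference was -1.01 in Ag+Costim vs Naive (exact permutation p = 0.00794, adjusted 0.0595) and -0.70 in Ag+Costim vs Ag (p = 0.0159, adjusted 0.0595).

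**Figure D4:**
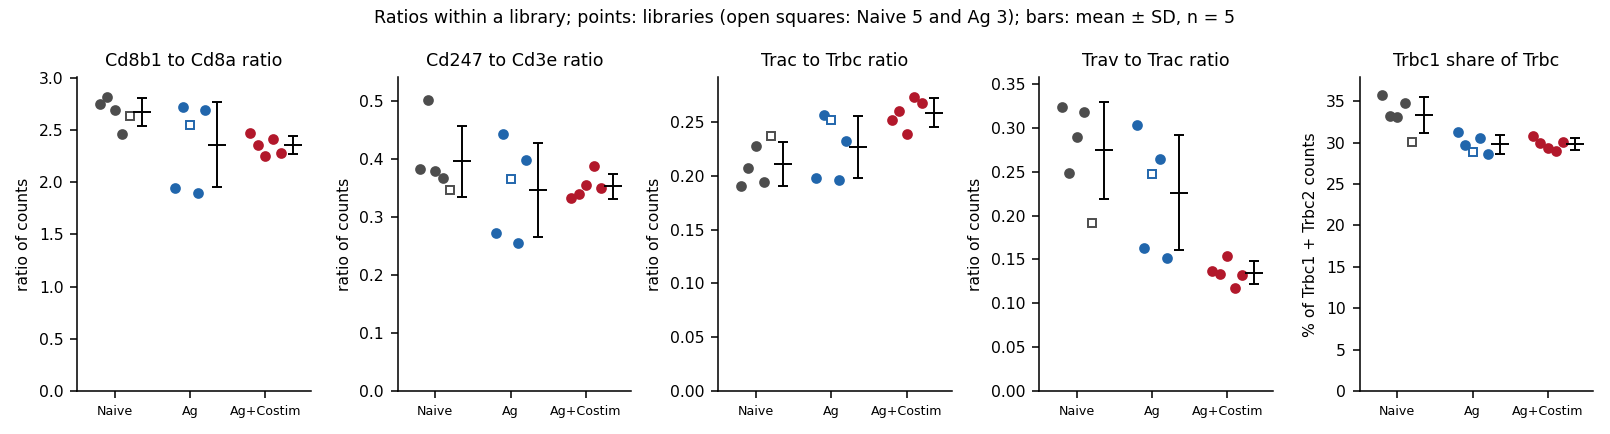
The 5 within-library ratios in each of the 15 libraries (points) by group, with the mean and 1 SD; open squares are Naive 5 and Ag 3. The Naive and Ag+Costim points do not overlap for Trac to Trbc or for Trav to Trac, and the Ag points of Cd8b1 to Cd8a separate into 2 low libraries (1.95 and 1.901) and 3 higher ones.

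The gene totals hide some differences in which transcripts were counted. The 9 genes have 28 annotated transcripts, of which 19 were tested for their share of the gene's counts. No share was called at FDR 0.05 by edgeR's diffSpliceDGE in any comparison, where Ag vs Naive called 0.374% of all 25932 transcripts tested, Ag+Costim vs Ag called 0.494% and Ag+Costim vs Naive called 0.617%. An unadjusted p under 0.05 was found for 0, 0 and 3 member transcripts in these comparisons, against 3.53%, 5.38% and 9.1% of all transcripts, the last 3 being Cd3e-202, Cd3e-204 and Cd3g-202. In Ag+Costim vs Naive, 11 of the 19 shares did not overlap between groups, against 14.1% of all transcripts, and none did so in the other comparisons (1.28% of all transcripts in Ag vs Naive and 2.21% in Ag+Costim vs Ag). These 11 are not independent, since shares of 1 gene sum to 100% and Trac-201 and Trac-202 mirror each other. Some differences were small, as for Cd3d-201 (0.103 percentage points). The 9 genes also lay at or above the 94.9th percentile of level, so all transcripts are not a like background. limma's diffSplice, which was added after the data were seen, called 5 in Ag+Costim vs Naive, against 6.32% of all transcripts: Cd3e-201, Cd3e-202, Cd3g-202, Cd8a-202 and Cd8a-203.

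The exon-skipping form Cd8a-202 held 20.4%, 29.0%, 28.8%, 22.6% and 44.1% of the Cd8a counts in Naive 1 to 5, 37.2%, 44.9%, 30.9%, 40.1% and 47.6% in Ag 1 to 5, and 45.9% ± 2.34 in Ag+Costim (43.3% to 48.3%). Naive 5, at 44.1%, lay within the Ag+Costim range and apart from the other Naive libraries. The diffSpliceDGE FDR in Ag+Costim vs Naive was 0.869 and the limma FDR 0.0259. The intron-keeping Cd8a-203 averaged 22.7% of the gene in Naive, with 16.4% and 11.1% in the treated groups without and with costimulation (diffSpliceDGE FDR 0.605, limma FDR 0.0499), from 9.73% in Naive 5 to 30.7% in Naive 1 among the Naive libraries, while the full-length Cd8a-201 held 48.3%, 43.4% and 43.0%.

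Cd3e-202 showed the same order of groups. It held 13.7%, 9.34%, 6.55%, 13.4% and 5.48% of the Cd3e counts in Naive 1 to 5, 8.96%, 4.71%, 3.47%, 7.65% and 2.17% in Ag 1 to 5, and 2.93% ± 0.518 in Ag+Costim. Naive 5 was the lowest Naive library, and Ag 1 and Ag 4 the highest of the Ag libraries. The test of this share gave opposite calls by tool (diffSpliceDGE FDR 0.322 and limma FDR 0.00470 in Ag+Costim vs Naive). The share of Cd3g-202 averaged 3.18%, 1.76% and 0.877% in the same order of groups (diffSpliceDGE FDR 0.542, limma FDR 0.0365), and that of Trac-201 was 32.9% ± 3.27, 27.3% and 24.3% ± 1.48 (limma FDR 0.0783). The shares were estimated by the authors from single short reads, most of which do not cross the junctions printed above. The libraries also differed in the percent of sequenced reads counted at genes. It was 38.2% to 46.8% in Naive, 16.9% to 53.6% in Ag and 51.9% to 52.7% in Ag+Costim, and its part in the transcript shares was not tested.

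**Figure D5:**
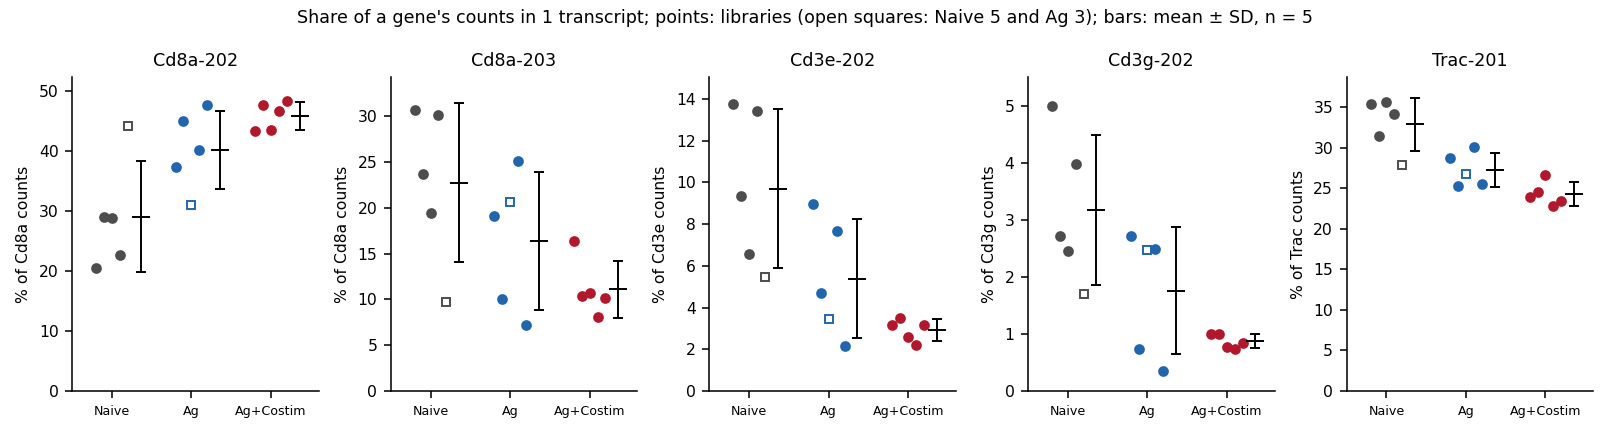
Share of the gene's counts (%) held by Cd8a-202, Cd8a-203, Cd3e-202, Cd3g-202 and Trac-201 in each of the 15 libraries by group, with the mean and 1 SD; open squares are Naive 5 and Ag 3. Cd8a-202 averages 29.0% in Naive and 45.9% in Ag+Costim, and the other 4 transcripts average less in Ag+Costim than in Naive.

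Genes that act with the receptor were read from 5 lists. Over all genes tested, 3.05% rose and 3.66% fell in Ag vs Naive, 0.0288% rose and 0.00576% fell in Ag+Costim vs Ag, and 21% rose and 23.6% fell in Ag+Costim vs Naive. With lane as a term, edgeR called none of the 17366 genes in Ag vs Naive (1285 had an unadjusted p under 0.05), so no list call of that comparison held in that fit, and with the Ag and Naive libraries alone it called 6 of 16742 genes. All list genes called in Ag vs Naive kept their sign with lane as a term. In Ag+Costim vs Naive the lane term left 6 of the 13 signalling calls, 2 of the 9 regulator calls, 1 of the 6 glycoprotein calls, 4 of the 5 other-receptor calls and 0 of the 4 turnover calls, all in genes that were lower in Ag+Costim. Of 28 genes of proximal receptor signalling, 1 rose and 9 fell in Ag vs Naive (edgeR, FDR 0.05; median log2 fold change -0.18, all genes 0.08) and 3 rose and 10 fell in Ag+Costim vs Naive (median -0.24, all genes -0.08). The lowest values were those of Trat1, an adaptor that binds the zeta chain, and of Rasgrp1, the Ras exchange factor downstream of the receptor. Trat1 fell from 52.4 ± 21.6 CPM in Naive to 7.97 ± 7.52 CPM in Ag (log2 fold change -2.79, edgeR FDR 0.0152) and 3.32 ± 1.26 CPM in Ag+Costim (-3.98, FDR 0.00169). Rasgrp1 fell from 362 ± 94.1 CPM to 123 ± 46.0 CPM (-1.55, FDR 0.00749) and 99.8 ± 14.4 CPM (-1.86, FDR 0.00115). Sh2d2a, an adaptor that binds Lck, rose from 212 ± 41.2 CPM to 327 ± 62.2 CPM in Ag and 341 ± 22.8 CPM in Ag+Costim (0.62, FDR 0.0259, and 0.69, FDR 0.00611), and the phosphatase gene Ptpn22 rose by 0.25 in Ag+Costim vs Naive (FDR 0.0428). Lck itself, the kinase that CD8 carries, was at 1503 ± 98.5, 1611 ± 214 and 1592 ± 49.7 CPM in Naive, Ag and Ag+Costim, and did not pass in either comparison with Naive (FDR 0.531 and 0.5262). It is named for its place in the complex, after its values were seen.

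Of 14 regulators of the CD3 and CD8 loci, 1 rose and 3 fell in Ag vs Naive (median -0.41) and 2 rose and 7 fell in Ag+Costim vs Naive (median -0.56). Satb1, a chromatin organiser needed for CD8 enhancer use in thymocytes, fell from 478 ± 155 CPM in Naive to 126 ± 63.8 CPM in Ag (-1.92, FDR 0.00874) and 83.5 ± 11.96 CPM in Ag+Costim (-2.52, edgeR FDR 0.00100). Lef1, a partner of Tcf7 at T cell enhancers, fell from 718 ± 251 CPM to 258 ± 114 CPM (-1.48, FDR 0.0165) and 189 ± 21.7 CPM (-1.92, FDR 0.00214). Myb rose by 1.44 in Ag vs Naive (FDR 0.0452) and 1.45 in Ag+Costim vs Naive (FDR 0.0145). The E protein gene Tcf3 was called higher in Ag+Costim vs Naive (0.62, FDR 0.0252) but not in Ag vs Naive (0.21, FDR 0.475). Between Ag+Costim and Ag, Tcf3 differed by 0.41 and did not pass (edgeR FDR 0.201). No gene of this list, or of the signalling list, was called in Ag+Costim vs Ag by edgeR, with 2 and 1 at an unadjusted p under 0.05. DESeq2 called 1 regulator higher and 1 lower there, and no signalling gene.

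Among 12 genes of receptor turnover and attenuation none was called in Ag vs Naive by edgeR (3 at an unadjusted p under 0.05) and 1 by DESeq2, and 1 rose and 3 fell in Ag+Costim vs Naive (median -0.05). Ap2m1, a subunit of the clathrin adaptor that takes in surface receptors, rose by 0.63 on the log2 scale (FDR 0.00905), and the diacylglycerol kinase Dgka and the ubiquitin ligase Itch were lower in Ag+Costim (-1.04, FDR 0.0152, and -0.80, FDR 0.0163). Of 12 T cell surface glycoproteins, 2 rose and 2 fell in Ag vs Naive and 1 rose and 5 fell in Ag+Costim vs Naive. Cd7 had the lowest value in both, falling from 280 ± 94.8 CPM to 77.8 ± 20.8 CPM in Ag (-1.85, FDR 0.00614) and 54.3 ± 14.3 CPM in Ag+Costim (-2.37, edgeR FDR 0.000954). Cd28, the costimulatory receptor for CD80 and CD86, and Cd52 rose in Ag vs Naive (0.58, FDR 0.0358, and 0.65, FDR 0.0165), and Cd48, a ligand of 2B4, rose in Ag+Costim vs Naive (0.97, FDR 0.0135). Cd6 fell in Ag vs Naive (-0.54, FDR 0.0389) and Cd96 in Ag+Costim vs Naive (-0.79, FDR 0.0192). No gene of the turnover, glycoprotein or other-receptor lists was called in Ag+Costim vs Ag by edgeR, with 1, 3 and 5 at an unadjusted p under 0.05, while DESeq2 called 0, 2 and 5 of them, all lower in Ag+Costim.

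Of 11 genes of other antigen receptor and tyrosine-motif chains, 9 passed the filter on low counts, and 2 fell in Ag vs Naive and 5 fell in Ag+Costim vs Naive. Those that fell in both were the gamma and delta constant genes Tcrg-C1 and Trdc, while Tcrg-C2 passed in Ag+Costim vs Naive alone and Tcrg-C4 in neither. Tcrg-C1 differed from Naive by -3.57 in Ag and -5.58 in Ag+Costim (log2, FDR 0.00614 and 0.000489 in edgeR), and Trdc by -1.39 and -1.44 (FDR 0.00614 and 0.00142). Dntt, the terminal transferase that adds bases at receptor junctions, had 276 counts over the 5 Naive libraries (7 to 97 in each), 57 over the Ag libraries and 0 over the Ag+Costim libraries. Hcst, the DAP10 adaptor of NKG2D, was 1.27 lower on the log2 scale in Ag+Costim vs Naive (FDR 0.00376). The 9 invariant chains all lay within 0.72 of 0 on the log2 scale in every comparison.

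Finally, the genes whose profiles over the 15 libraries were most like those of the chains were ranked by the root-mean-square difference of centred log2 CPM, over 7778 genes whose mean reached 20 CPM. For the mean CD3 profile they were Tnfrsf18 (0.0872), which encodes the costimulatory receptor GITR, Pigp (0.0954) and H2-M3 (0.0965), where the median gene differed by 0.497. For the mean CD8 profile they were Laptm4a (0.0752), Rnaset2b (0.0773) and Rnaset2a (0.0809), the last being near-identical copies that share reads (median gene 0.507). For the mean constant-region profile they were Trbj2-7 (0.0608) and Trbv12-1 (0.0614), a beta joining segment and a V beta 5 segment, and Gimap5 (0.0786, median gene 0.508). These are descriptions over 15 libraries that share their groups and lanes, and carry no test.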

How the data were processed

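The authors aligned single reads, from SMART-Seq v4 cDNA and unstranded Nextera XT libraries, to the mouse mm10 genome with HISAT2 2.1.0 (SAMtools 1.9), and StringTie 2.1.0 gave the deposited estimated counts per gene and per transcript, whole numbers that are not normalized. Per the file headers, a deposited table of the sequencing facility gives the reads sequenced and the percent aligned in each library. It gives a read length of 50 bases, whereas the study's methods give 100, and the difference could not be settled here. A table of normalized values was not used here. Of 81881 gene entries, 55536 matched a GENCODE M21 gene, 26248 were named by number only and held 0.0818% of the counts, and stayed out of the tests.

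The 9 genes were chosen by symbol, and they, the lists and the tests were chosen with earlier results of these data known. Groups came from the labels. Counts of all genes were fitted in edgeR 4.0.16 (R 4.3.3): filterByExpr left 17366 genes, with TMM scaling, 1 coefficient per group over 15 libraries and robust quasi-likelihood tests, adjusted by Benjamini and Hochberg over all genes tested (FDR threshold 0.05). CPM use TMM-scaled library sizes, and per-kilobase values divide by the lengths of the transcripts counted. Transcript shares were tested with diffSpliceDGE, which on simulated data called more unchanged genes than its nominal rate, and then with limma 3.58.1. Ratios used exact permutation tests. DESeq2 1.42.0, other scalings and filters, a lane term and leaving out libraries were the alternatives. Genes beside the 9 were named by rule: the called genes with the 2 highest and the 2 lowest fold changes of each list in each comparison, and the 3 most similar profiles. The labels do not say that libraries came from separate animals, so p-values measure the spread between these libraries, which may be partly technical. Depth was 4865952 to 25280667 counts per library, with 16.9% to 53.6% of sequenced reads counted.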

Additional observations from a re-analysis of the deposited data

Results flagged for a closer look

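In 57 groups of 5 libraries examined for a single value far from the rest by Dixon's test, 3 were flagged, where chance flags about 1 in 20. Cd247 in Ag 3 was at 218 CPM, while the other Ag libraries lay between 303 and 317 CPM. Trbc2 in Naive 5 was at 2282 CPM, while the other Naive libraries lay between 2875 and 3081 CPM. The log2 ratio of Cd247 to Cd3e was -0.99 in Naive 2, while it ran from -1.53 to -1.38 in the other Naive libraries. Ag 3 and Naive 5 are the libraries with the highest erythroid and myeloid marker sums, and Naive 5 also had the highest NK marker sum of its group. The part of these sums in the values was not tested. Naive 2 had the lowest Cd3e level of its group.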

How the results depend on the processing

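In Ag vs Naive the number of the 9 genes called was 0 in edgeR, 1 in DESeq2, 3 without Ag 3 and Naive 5, and 0 to 2 when 1 library was left out (2 without Naive 5). In Ag+Costim vs Ag it was 0, 1 in DESeq2, 5 without Ag 3 and Naive 5, and 0 to 1 (1 without Ag 3). In Ag+Costim vs Naive it was 4, 6 in DESeq2, 7 with library totals alone, 8 with the libraries of the comparison alone, 0 without the low-count filter, 1 with lane as a term and 1 to 6 when 1 library was left out (1 without Ag+Costim 4, 6 without Naive 5). For transcript shares it was 0 in diffSpliceDGE, 5 in limma and 0 to 1 (1 without Naive 5 or Ag+Costim 1). The share of all genes called moved between these settings as well, and the cause was not tested. Scaling by library totals alone shifted the median of all genes in Ag+Costim vs Naive from -0.08 to -0.23 on the log2 scale.

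Directions that turned belonged to values that passed no test. In Ag vs Naive, Trbc1 (0.00) was -0.0162 in DESeq2 and with DESeq2 size factors, -0.0195 with the replicate block, -0.0591 with library totals, -0.0367 unfiltered and -0.21 with lane, Cd3d was -0.14 with lane, and Cd3g was 0.0394 without Ag 3 and Naive 5. Leaving out 1 library gave -0.15 to 0.15 for Trbc1, -0.16 to 0.10 for Cd3g and -0.26 to 0.0030 for Cd3e. Trac in Ag+Costim vs Naive was 0.0697 unfiltered, and -0.13 to 0.0177 with 1 library left out. In Ag+Costim vs Ag, leaving out 1 library gave log2 ratios of -0.0590 to 0.0704 for Cd8b1 to Cd8a and -0.0458 to 0.15 for Cd247 to Cd3e, and a Trbc1 share difference of -0.26 to 0.40 percentage points (-0.0076 per kilobase).

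With 1 library left out, some ratios passed 0.05 after adjustment, each in 1 or 2 of 10 settings. In Ag+Costim vs Naive, Cd8b1 to Cd8a, Trac to Trbc and Trav to Trac passed in 2 settings each and the Trbc1 share in 1. Trav to Trac in Ag+Costim vs Ag and the Trbc1 share in Ag vs Naive passed in 1 each. The ranges of the differences cover all 10 settings, passing or not. In Ag+Costim vs Naive they ran from -0.21 to -0.16 for Cd8b1 to Cd8a, 0.26 to 0.34 for Trac to Trbc and -1.13 to -0.94 for Trav to Trac. For the Trbc1 share they ran from -4.34 to -2.92 percentage points there and from -4.37 to -2.95 in Ag vs Naive. For Trav to Trac in Ag+Costim vs Ag they ran from -0.83 to -0.58.

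With the replicate number as a block the calls were again 0, 0 and 4. Deviations of equally numbered libraries correlated at -0.324 to 0.470 (2 of 5 best with their own number) in Ag vs Naive, -0.251 to 0.166 (1 of 5) in Ag+Costim vs Ag and -0.156 to 0.122 (2 of 5) in Ag+Costim vs Naive, so the numbers were not taken as pairs. Ag 3, with the fewest counts, is the least precise library.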
